A study of Mus musculus with 2 samples.

Results

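The annexins Anxa1 to Anxa5, the S100 genes S100a4, S100a6, S100a10 and S100a11, and Lgals1 make up a set of 10 genes of the 55450 in the count matrices, each found under a single identifier. They were picked by name, as annexins, their S100 partners and a galectin listed with them, and because Anxa2 had been seen to be lower in the Hk2 cKO library. The difference between the libraries in microglia is therefore a description here and not a finding about the set. Of the 10 genes, 8 reached a mean of at least 10 UMIs per 1000000 UMIs (CPM) in microglia-like cells, and Anxa1 and S100a11 did not.

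The cells came from the brains of C57BL/6 mice, sorted as CD11b high CD45 low, at day 3 of microglial repopulation, and each genotype was 1 single-cell 3' RNA library with unique molecular identifiers (UMIs). Hk2 cKO mice lack the glycolytic enzyme hexokinase 2 in cells in which Cre was active: per the labels, floxed Hk2 mice were crossed with Cx3cr1CreER mice, in which a tamoxifen-dependent Cre is expressed from Cx3cr1, a gene active in microglia and in other mononuclear phagocytes. Hk2 fl/fl mice carry the same floxed alleles. Tamoxifen, 100 μg on 2 consecutive days, is described for newborn mice or as otherwise stated, and whether both genotypes received it, how many animals were pooled, their age, how microglia were depleted and which Hk2 exons are floxed are not given in the sources used here. With 1 library per genotype no difference between genotypes can be told apart from a difference between libraries, so no test was made, and every interval covers counting error only.

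Annexins are cytosolic proteins that bind phospholipid membranes when calcium rises, and they take part in membrane repair, vesicle traffic and the binding of exposed phosphatidylserine. S100 proteins are small dimeric EF-hand proteins, several of which bind the N-terminal tail of an annexin: S100A10 pairs with annexin A2 in a membrane-bound heterotetramer that also binds plasminogen, and S100A11 pairs with annexin A1. S100A4 and S100A6 bind cytoskeletal and chaperone-linked proteins as well as annexins, and galectin-1, the product of Lgals1, binds galactose-containing glycans on the cell surface. In the brain several of these genes are known from infiltrating myeloid cells as well as from microglia.

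The genes lie on 6 chromosomes (GRCm38), with all 4 S100 genes on chromosome 3. Anxa2 is at chr9:69453620-69491795 on the plus strand. S100a4, at chr3:90603771-90606045, and S100a6, at chr3:90612882-90624181, are 6.84 kb apart with S100a5 between them. S100a11, at chr3:93520488-93526287, and S100a10, at chr3:93555080-93564643, are 28.8 kb apart with 0 protein-coding genes between them. Anxa5 is on chromosome 3 too, while Anxa1, Anxa3, Anxa4 and Lgals1 are on chromosomes 19, 5, 6 and 15. Coding sequences of the 5 annexins were 58.7 to 63.5% identical in pairwise alignment, and those of the 4 S100 genes 58.3 to 68.9%. The calcium-binding loop of the second EF-hand, 12 codons long, is shown because it sets S100a10 apart from the other 3: codons 1, 3, 5 and 12, which supply calcium ligands in a canonical loop, are in capitals. The pattern of acidic or asparagine codons at 1, 3 and 5 and a glutamate codon at 12 was found in S100a4, S100a6 and S100a11 and not in S100a10, whose protein is known to be held in a permanently open shape without calcium.
S100a4: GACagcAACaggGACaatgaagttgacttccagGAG
S100a6: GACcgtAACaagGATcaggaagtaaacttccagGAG
S100a11: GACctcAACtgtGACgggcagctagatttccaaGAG
S100a10: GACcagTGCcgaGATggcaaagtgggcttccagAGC
The first 45 coding bases of Anxa2, with the start codon in capitals, encode the tail that the S100A10 dimer binds.
Anxa2: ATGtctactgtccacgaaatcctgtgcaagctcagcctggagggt

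RefSeq promoter windows (GRCm38.p6), from 250 bases before to 50 after the start site, were found for 7 of the 10 genes, and not for Anxa3, S100a10 and Lgals1. They were searched on both strands for 4 motifs, spelled TGANTCA for AP-1, GGGCGG for the GC box, TATAAA for the TATA motif and GAGGAAGT for PU.1. The 250 bases before the start are shown for the genes with an entry that were lower in cKO microglia-like cells past the limit given below. Matches to TGANTCA and TATAAA are in capitals. Anxa2, at chr9:69453433-69453682, plus strand, held TGANTCA once, starting at -95, TATAAA at -17 and GGGCGG 3 times. S100a4, at chr3:90603520-90603769, plus strand, held TATAAA at -31 and, past the start, GAGGAAGT at 17, and S100a6, at chr3:90612644-90612893, plus strand, held none of the 4 motifs.
Anxa2: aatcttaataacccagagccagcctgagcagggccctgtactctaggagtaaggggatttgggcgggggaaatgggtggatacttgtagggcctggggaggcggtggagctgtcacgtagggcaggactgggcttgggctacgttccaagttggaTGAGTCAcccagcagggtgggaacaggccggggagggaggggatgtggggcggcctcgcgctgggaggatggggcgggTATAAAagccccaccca
S100a4: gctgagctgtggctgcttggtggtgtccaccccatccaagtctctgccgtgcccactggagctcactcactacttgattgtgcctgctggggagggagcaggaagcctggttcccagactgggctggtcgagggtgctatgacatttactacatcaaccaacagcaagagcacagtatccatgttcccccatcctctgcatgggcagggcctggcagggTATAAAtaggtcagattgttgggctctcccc
S100a6: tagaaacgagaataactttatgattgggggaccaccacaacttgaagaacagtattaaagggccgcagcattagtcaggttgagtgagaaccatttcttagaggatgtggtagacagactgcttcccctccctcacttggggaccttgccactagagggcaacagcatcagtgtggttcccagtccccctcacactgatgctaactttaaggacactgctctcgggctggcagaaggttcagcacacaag
Of 32851 promoter windows of the same length, 7.81% held TGANTCA, 35.7% GGGCGG, 13.6% TATAAA and 3.20% GAGGAAGT. These are letter matches and not binding sites.

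The libraries held 2607 barcodes (Hk2 cKO) and 3089 barcodes (Hk2 fl/fl), of which 2301 and 2826 were kept, and 2 barcodes occurred in both. Microglia-like cells numbered 1995 in the cKO library, with 28255366 UMIs and a median of 12015 per cell, and 2434 in the fl/fl library, with 31777146 UMIs and a median of 10128.5. The label was checked on Hk2, at 43.3 CPM (40.9 to 45.8) in cKO microglia-like cells, against 164.7 CPM (160.3 to 169.2) in fl/fl cells. Whether the counted 3' end of Hk2 lies in the deleted part is not known here. Cx3cr1, from which the Cre is expressed, differed as well, at 678 CPM in cKO cells and 1298 CPM in fl/fl cells. The part of the Cre allele in this and in other differences between the libraries was not tested. The gate also held neutrophil-like, monocyte-like and endothelial-like cells, a cluster led by the MHC class II genes H2-Eb1, H2-Aa and H2-Ab1 with Cd209a, and a cluster led by the osteoclast genes Acp5 and Ctsk. Choroid plexus-like cells (6 cKO and 13 fl/fl) and cells of unnamed clusters (25 and 91) are left out of the comparisons of classes.

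In microglia-like cells, 5 of the 8 measured genes were lower in the cKO library past the limit used here, a log2 ratio of 0.32 in size (5 to 4 as a ratio), and 0 were higher past it. Anxa2, S100a4, S100a6, S100a10 and Lgals1 were the 5, and Anxa3, Anxa4 and Anxa5 were within the limit. Over all 7811 genes measured in these cells, 2.47% were lower past the limit and 3.33% were higher, and since the set was chosen with this contrast in view nothing is read from that comparison. The cells of the class fell into different clusters in the libraries: cluster 8, led by mitotic genes, held 7.52% of cKO and 20.2% of fl/fl microglia-like cells, cluster 2 5.91% and 13.97%, cluster 12 16.1% and 7.23%, and cluster 9 14.3% and 7.93%. With clusters weighted equally the same 5 genes, of 9 then measured, were lower past the limit, with 2.35% of all measured genes. The log2 ratios were then -0.45 for Anxa2 and -0.74 for S100a10. The median log2 ratio of cKO over fl/fl was -0.37 over the 8 genes and -0.04 over all measured genes. All ratios are log2 of CPM with 1 CPM added, and CPM here counts 3' UMIs per 1000000 UMIs of the same cells, without correction for transcript length, so levels of different genes are not ranked.

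**Figure D1:**
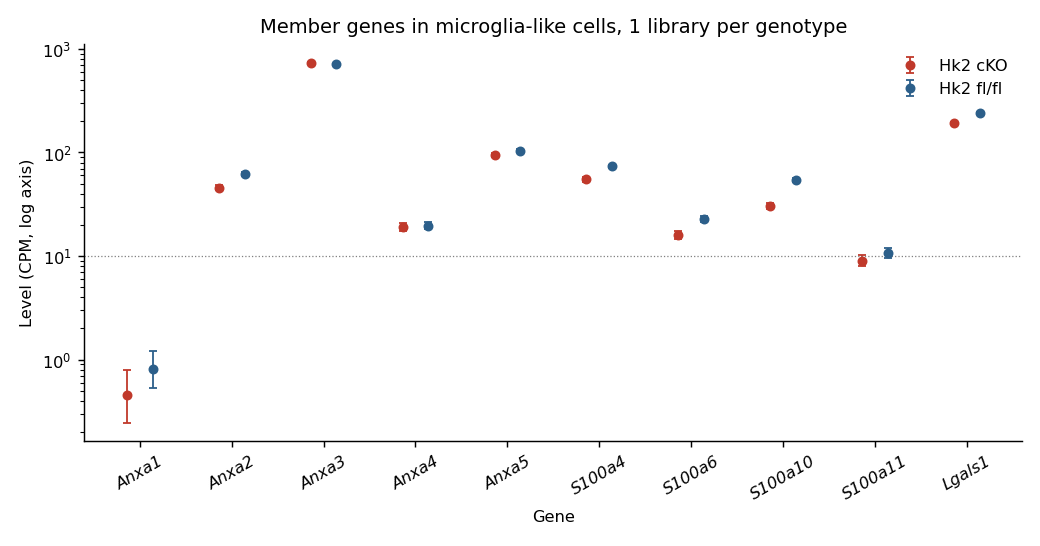
Level of each of the 10 genes in microglia-like cells of the Hk2 cKO library (red, left of each pair) and the Hk2 fl/fl library (blue, right), in CPM on a log axis, with 95% exact Poisson intervals as bars and the 10 CPM limit as a dotted line. S100a10 shows the widest gap of the 8 measured genes, at 30.3 CPM in cKO and 54.5 CPM in fl/fl cells.

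Among the annexins, Anxa2, the partner of S100A10 at the plasma membrane and on endosomes, was the only one of the 4 measured that differed past the limit. It had 45.9 CPM (95% exact Poisson interval 43.4 to 48.5; 1297 UMIs) in cKO cells, against 61.8 CPM (59.1 to 64.6; 1964 UMIs) in fl/fl cells. The intervals did not overlap, and the log2 ratio was -0.42. Anxa3, an annexin known from rodent microglia, stood at 737 CPM (727 to 747) in cKO cells and 709 CPM (699.7 to 718) in fl/fl cells, a log2 ratio of 0.05 with intervals apart. Anxa5, the phosphatidylserine binder used as a stain for dying cells, had 94.3 CPM (90.7 to 97.9) in cKO cells and 103.6 CPM (100.1 to 107.2) in fl/fl cells, a log2 ratio of -0.13. Anxa4, an annexin known mostly from epithelia, had 19.0 CPM in cKO cells and 19.7 CPM in fl/fl cells, and the intervals overlapped. Anxa1, a ligand of formyl peptide receptors, was nearly absent, with 13 UMIs (0.460 CPM) in cKO cells and 26 UMIs (0.818 CPM) in fl/fl cells, too few to tell the libraries apart.

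All 4 S100 genes had lower values in the cKO library, where the median log2 ratio over all measured genes was also negative (-0.04). S100a10 had 30.3 CPM (28.3 to 32.4; 856 UMIs) in cKO cells, against 54.5 CPM (51.9 to 57.1; 1731 UMIs) in fl/fl cells. That is 1.77-fold lower, a log2 ratio of -0.83, and the 8th lowest ratio of the 7811 measured genes. S100a4, a protein that binds non-muscle myosin and is known from motile cells, had 54.9 CPM (52.2 to 57.7) in cKO cells and 73.3 CPM (70.3 to 76.3) in fl/fl cells, a log2 ratio of -0.41. S100a6, which binds the CacyBP/SIP protein, had 15.9 CPM (14.5 to 17.4) in cKO cells and 22.8 CPM (21.2 to 24.5) in fl/fl cells, a log2 ratio of -0.50. S100a11, the annexin A1 partner, had 9.02 CPM in cKO cells and 10.7 CPM in fl/fl cells with overlapping intervals.

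Lgals1 had 192 CPM (186 to 197; 5412 UMIs) in cKO cells, against 240.4 CPM (235 to 246; 7640 UMIs) in fl/fl cells. Its log2 ratio was -0.33, close to the limit, and the intervals did not overlap. Pseudogenes of Lgals1 and S100a11 took 0 to 2 UMIs in either library.

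The share of microglia-like cells with a UMI of a gene depends on depth, so each cell was also thinned to 5000 UMIs, which left 1817 cKO and 2216 fl/fl cells and dropped 178 and 218 shallower ones. S100a10 was then found in 13.04% (11.5 to 14.7) of cKO cells and in 20.4% (18.8 to 22.2) of fl/fl cells, with unthinned shares of 26.7% and 36.6%. Anxa2 was found in 16.8% (15.1 to 18.6) of cKO cells and in 21.3% (19.6 to 23.0) of fl/fl cells. Unthinned, its shares were 33.9% and 38.6%. For Lgals1 the thinned shares were 41.0% in cKO and 47.8% in fl/fl cells, and for Anxa3 95.6% and 95.3%. Of the 8 measured genes 7 had the smaller thinned share in cKO cells, as did 62.0% of all measured genes, and unthinned 5 of the 8 did, with 31.7% of all measured genes. S100a4 was found in 17.1% (15.4 to 18.9) of thinned cKO and 20.2% (18.5 to 21.9) of thinned fl/fl cells. The thinned intervals of Anxa1, Anxa3, Anxa4, Anxa5, S100a4 and S100a6 overlapped between the libraries. S100a8, a neutrophil gene that microglia should lack, had a UMI in 5.94% (4.90 to 7.13) of thinned cKO and 6.45% (5.47 to 7.56) of thinned fl/fl microglia-like cells. The thinned shares of S100a6 (4.57% in cKO and 6.09% in fl/fl cells), S100a11 (3.96% and 6.09%) and Anxa1 (0.220% and 0.361%) lay below the S100a8 share, and no difference between the libraries is read from them.

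S100a10 was found in a larger share of cells with Anxa2 than of cells without it, with counting intervals apart in the fl/fl and overlapping in the cKO library. Of thinned cells with an Anxa2 UMI, 17.4% (13.3 to 22.1) of cKO and 26.5% (22.6 to 30.8) of fl/fl cells also held S100a10. Of those without one, 12.2% (10.6 to 13.9) of cKO and 18.8% (17.0 to 20.7) of fl/fl cells did. The galectin gene Lgals1 showed this too: it was found in 53.8% of cKO and 60.9% of fl/fl cells with an Anxa2 UMI, and in 38.4% of cKO and 44.3% of fl/fl cells without one, with intervals apart in both libraries. S100a6 was found in 8.85% of cKO and 10.8% of fl/fl cells with Anxa2 and in 3.70% and 4.81% without, with intervals apart in both. For S100a4 the shares were 21.0% and 25.7% with Anxa2 and 16.3% and 18.7% without, with intervals apart in the fl/fl library only. S100a4 was found in 27.4% of cKO and 21.4% of fl/fl cells with an S100a10 UMI, and in 15.6% of cKO and 19.9% of fl/fl cells without one, with intervals apart in the cKO library only. With S100a10, Lgals1 had intervals apart in the cKO library only, and S100a6 had overlapping intervals in both. S100a6 was found in 12.9% of cKO and 16.1% of fl/fl cells with S100a4 and in 2.86% and 3.56% without, with intervals apart in both. The contrast was thus not particular to Anxa2 and S100a10. S100a6 UMIs were concentrated in few cells. The 20 of 1995 cKO cells with most S100a6 held 44.1% of them, and the 25 of 2434 fl/fl cells with most held 40.7%. For S100a10, the 1% of cells with most S100a10, ranked separately, held 14.1% of its UMIs in cKO and 12.3% in fl/fl.

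Most of these genes had higher levels in other cells of the gate than in microglia-like cells. Anxa1 reached 1691 CPM (1620 to 1765) in cKO and 1594 CPM (1516 to 1675) in fl/fl neutrophil-like cells, and only 0.549% of its UMIs in the kept cKO cells and 1.34% of those in the kept fl/fl cells lay in microglia-like cells. S100a11 was also highest there, with 1534 CPM in cKO and 1283 CPM in fl/fl neutrophil-like cells, and 9.23% of its UMIs in cKO and 13.4% in fl/fl cells lay in microglia-like cells. S100a4 was highest in the osteoclast-type cluster, at 4726 CPM in cKO and 3245 CPM in fl/fl cells, then in monocyte-like cells, at 3018 CPM in cKO and 2046 CPM in fl/fl cells, while neutrophil-like cells held only 34.6 CPM in cKO and 65.1 CPM in fl/fl. S100a6 was highest in monocyte-like cells, at 2989 CPM in cKO and 2333 CPM in fl/fl cells. Of Anxa3 UMIs 91.7% in cKO and 90.4% in fl/fl cells lay in microglia-like cells, which held 87.3% and 85.9% of all UMIs of the kept cells.

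**Figure D2:**
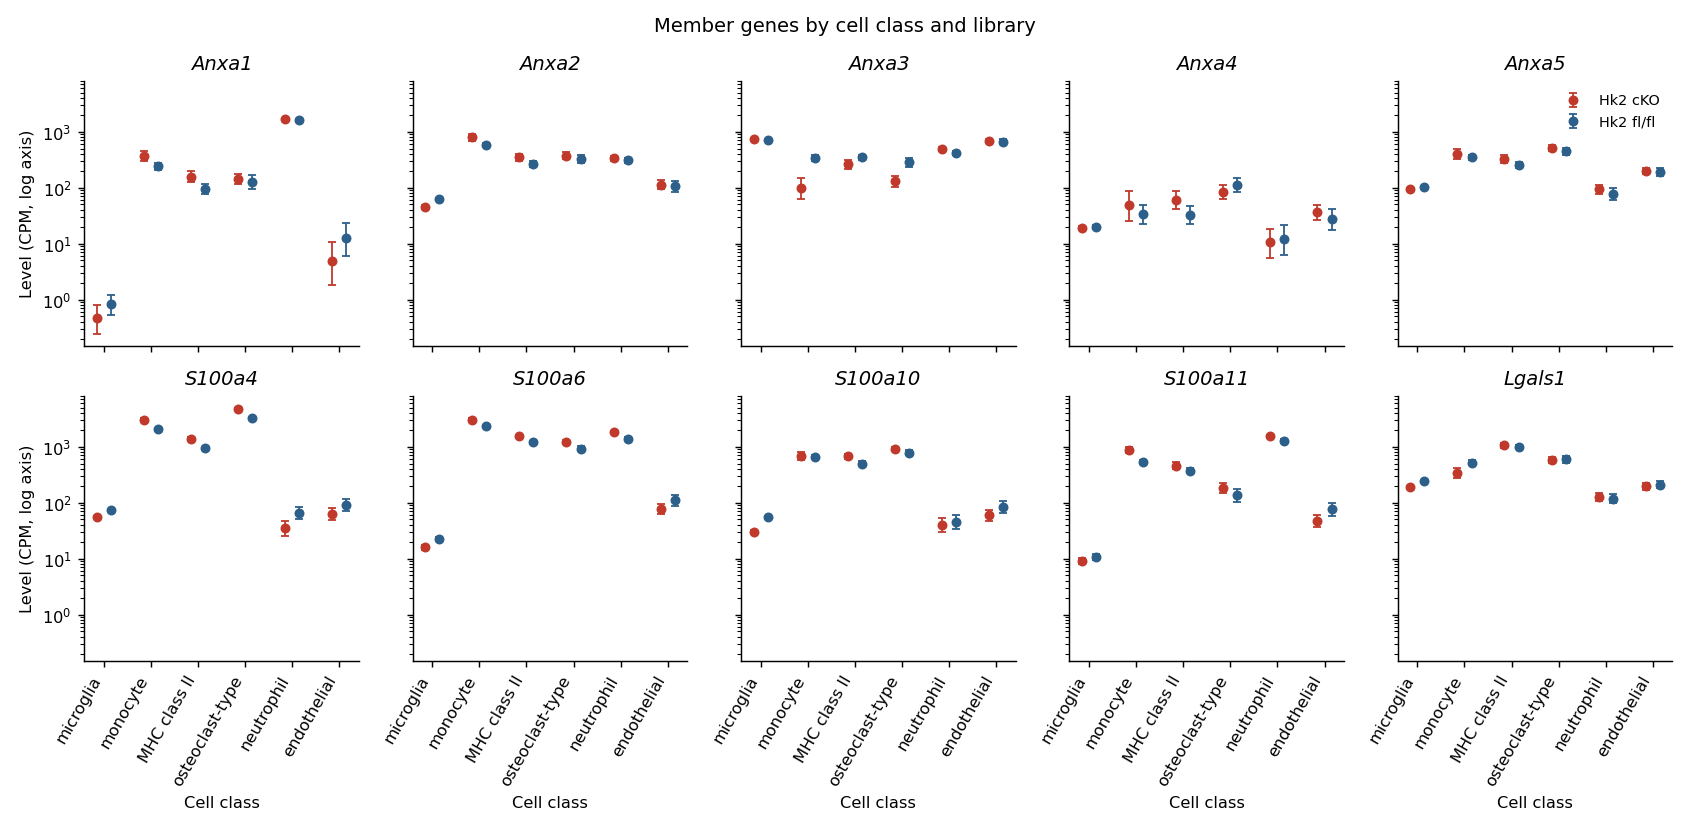
Level of each gene in 6 cell classes of the Hk2 cKO library (red, left of each pair) and the Hk2 fl/fl library (blue, right), in CPM on a log axis shared by all panels, with 95% exact Poisson intervals as bars. Anxa1, S100a6 and S100a11 are lowest in microglia-like cells in both libraries, and Anxa3 has its highest value there, with an interval that overlaps that of endothelial-like cells in both libraries. Endothelial-like cells also held 1820 CPM (cKO) and 1915 CPM (fl/fl) of Fcrls, Siglech, Tmem119 and P2ry12, which mark microglia.

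For Anxa2 the order was monocyte-like cells first, at 789 CPM (682 to 909) in cKO and 576 CPM (524 to 631) in fl/fl cells. The osteoclast-type cluster had 373 CPM (325 to 427) in cKO and 326 CPM (273 to 387) in fl/fl cells, the MHC class II cluster 347 CPM (296 to 404) and 262 CPM (230.2 to 297), and neutrophil-like cells 334 CPM (303 to 368) and 307 CPM (274 to 344). The intervals of these 3 classes overlapped within each library. Endothelial-like cells had 113.8 CPM in cKO and 105.8 CPM in fl/fl cells, and microglia-like cells were the lowest of these classes. Of the same classes, S100a10 was lowest in microglia-like cells of the cKO library and in neutrophil-like cells of the fl/fl library, with overlapping intervals between the 2 classes in each, and highest in the osteoclast-type cluster, at 916 CPM (840 to 997) in cKO and 783 CPM (699 to 874) in fl/fl cells. Lgals1 was highest in the MHC class II cluster, at 1051 CPM in cKO and 1006 CPM in fl/fl cells.

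In the other cells of the gate, which are few, the genes did not all move the way they did in microglia-like cells. In monocyte-like cells (34 cKO and 80 fl/fl cells) 6 of 10 were higher past the limit and 2 were lower, with 27.8% of all genes measured in these cells higher and 36.0% lower. In the MHC class II cluster (35 and 55 cells) 7 of 10 were higher and 1 lower, with 23.8% and 29.8% of all genes. The osteoclast-type cluster (25 and 16 cells) had 3 of 10 higher and 2 lower, with 24.8% and 30.4% of all genes. Neutrophil-like cells (89 and 82 cells) had 1 higher and 1 lower, with 13.1% and 29.0%, and endothelial-like cells (92 and 55 cells) had 1 of 9 measured higher and 4 lower, with 21.0% and 20.3%. S100a4 was 3018 CPM (2804 to 3244) in cKO monocyte-like cells, against 2046 CPM (1948 to 2147) in fl/fl monocyte-like cells, with intervals apart.

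In the monocyte-like, MHC class II and osteoclast-type clusters the content of microglial RNA differed between the libraries. The sum of Fcrls, Siglech, Tmem119 and P2ry12, which mark microglia, came to 65.8 CPM in cKO and 1106 CPM in fl/fl monocyte-like cells, to 915 CPM and 1306 CPM in the MHC class II cluster, and to 558 CPM and 989 CPM in the osteoclast-type cluster. It was 1201 CPM and 1242 CPM in neutrophil-like cells. Endothelial-like cells held 1820 CPM in cKO and 1915 CPM in fl/fl, beside 2754 CPM and 2706 CPM in microglia-like cells. Anxa3 was 98.7 CPM in cKO and 341 CPM in fl/fl monocyte-like cells. The part of this microglial RNA in the levels and differences of the genes in these classes, Anxa3 of endothelial-like cells included, was not tested.

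Because these genes are abundant in other cells of the gate, the level that stray RNA would bring to microglia-like cells was estimated for 5 sources from the level of each source's markers, taking the smaller of the 2 values that its 2 markers gave. The 5 sources together would bring 1.40 CPM of Anxa2 to cKO cells and 1.87 CPM to fl/fl cells, which is 3.05% and 3.03% of the measured levels. For S100a10 the estimates were 1.12 CPM in cKO and 2.16 CPM in fl/fl cells, and for S100a6 2.42 CPM and 4.72 CPM, or 15.2% and 20.7% of its level. With these taken off, the log2 ratios were -0.42 for Anxa2, -0.82 for S100a10 and -0.40 for S100a6. For the MHC class II source the smaller value came from unlike markers. These were Cd209a in cKO (0.0354 CPM in microglia-like cells) and H2-Eb1 in fl/fl (3.78 CPM). The estimate for Anxa1 was 125% of its level in cKO and 87.3% in fl/fl cells, so no Anxa1 above stray RNA was detectable in cKO microglia-like cells. Of the monocyte markers, Ly6c2 was 0.248 CPM in cKO and 0.629 CPM in fl/fl microglia-like cells. Plac8 moved the other way there, and the 12 monocyte markers summed to 142 CPM in cKO and 83.9 CPM in fl/fl cells, with 0 and 1 of them at 0. With both markers pooled the monocyte source alone would bring 25.4 CPM of S100a6 to cKO cells, more than the 15.9 CPM measured. It would then bring 46.7% of the S100a4 level, 19.3% of S100a10 and 14.6% of Anxa2 in cKO cells. In fl/fl cells these were 6.55%, 2.81% and 2.18%, so the estimates depend on the marker.

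Across 9 microglia-like clusters with at least 50 cells in each library, made without the 10 genes among the variable genes, S100a10 was lower in the cKO library past the limit in 9 of 9. Of the 5787 genes measured in all 9 clusters 9 did so, or 0.156%. Its ratios ran from -1.02 to -0.57 on the log2 scale, and the counting intervals were apart in 6 clusters. Lower by any amount in at least 7 of the 9 were also Anxa2 (7), S100a4 (7), Lgals1 (8) and Anxa5 (8), and this held for 24.3% of the measured genes. S100a6, which was not measured in every cluster, was lower in 7. Anxa3 was lower in 2 of 9 and Anxa4 in 4 of 9. The remaining microglia-like cluster, led by the interferon-induced genes Ifit3 and Rsad2, had only 61 cKO and 24 fl/fl cells, and S100a10 there had 30.9 CPM (20.7 to 44.4) in cKO and 25.3 CPM (10.9 to 49.8) in fl/fl cells, with overlapping intervals. The clusters are states of the cells of the same libraries and not replicates.

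**Figure D3:**
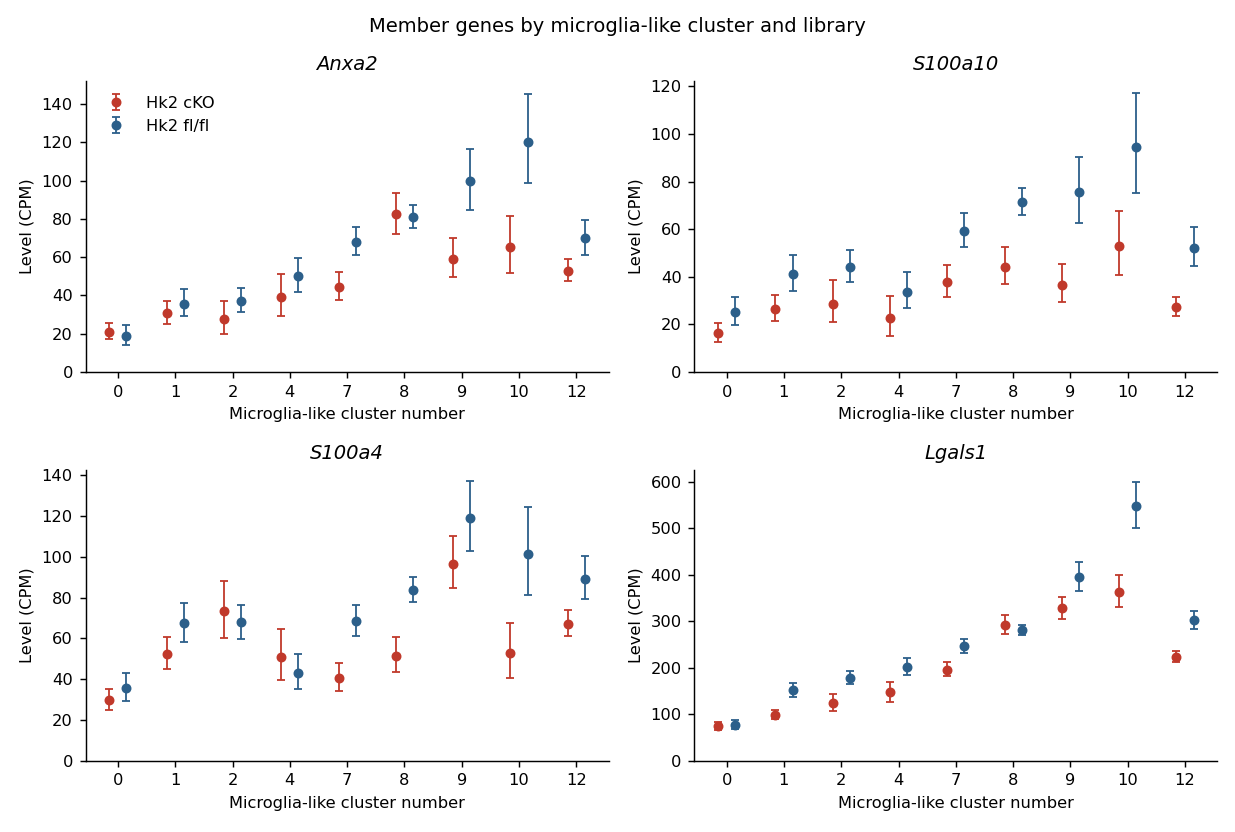
Level of Anxa2, S100a10, S100a4 and Lgals1 in 9 microglia-like clusters of the Hk2 cKO library (red, left of each pair) and the Hk2 fl/fl library (blue, right), in CPM, with 95% exact Poisson intervals as bars. S100a10 is lower in cKO cells in all 9 clusters plotted, and Anxa2 and Lgals1 are lowest in cluster 0 in both libraries.

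Levels also varied between clusters. In cluster 0, led by Otud1, Rrad, Klf2 and Klf6, Anxa2 had 21.1 CPM (17.0 to 25.8) in cKO and 18.9 CPM (14.3 to 24.4) in fl/fl cells, and S100a10 had 16.4 CPM in cKO and 25.1 CPM in fl/fl cells. Dividing clusters were not alike: in cluster 7, led by Top2a, Anxa2 had 44.5 CPM in cKO and 68.1 CPM in fl/fl cells, and Lgals1 had 196 CPM in cKO and 246 CPM in fl/fl cells. In cluster 9, led by Gm28438, Apoe and Mif, Anxa2 had 59.2 CPM in cKO and 99.7 CPM in fl/fl cells. In cluster 10, led by Pbk, Cdk1, Tyms and Rrm2, Anxa2 had 65.4 CPM (51.8 to 81.5) in cKO and 120.4 CPM (98.6 to 145) in fl/fl cells, and Lgals1 had 363 CPM in cKO and 548 CPM in fl/fl cells. In cluster 8, led by the mitotic genes Ccnb2 and Cenpa, Anxa2 had 82.3 CPM in cKO and 81.0 CPM in fl/fl cells, with overlapping intervals, while S100a10 had 44.3 CPM (36.9 to 52.7) in cKO and 71.3 CPM (65.8 to 77.2) in fl/fl cells. Cluster 12, led by the chemokine and cytokine genes Ccl7, Tnf and Cxcl2, had 53.0 CPM of Anxa2 in cKO and 69.9 CPM in fl/fl cells. Anxa3 stayed between 635 and 850.3 CPM over the 9 clusters in cKO and between 597 and 871 CPM in fl/fl cells.

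By cell cycle class, called on thinned cells (3 or more of 12 genes of the G2/M or the S list), the G2/M-positive share was 27.6% in cKO and 34.8% in fl/fl cells, with 113 cKO and 177 fl/fl cells at the limit of 3 genes. The calls depend on depth: cells positive for neither set were 60.04% of cKO and 53.4% of fl/fl cells at 5000 UMIs, and 72.3% and 69.4% at 2500 UMIs, so they include cells whose cycle genes were missed, and no state of the cell is read from the call. Anxa2 was higher in G2/M-positive than in cells positive for neither set of the same library, at 54.7 CPM (45.9 to 64.7) against 34.6 CPM (29.9 to 40.0) in the cKO library and 66.6 CPM (58.7 to 75.2) against 41.7 CPM (36.7 to 47.3) in the fl/fl library. S100a10 had the same order, 41.9 CPM against 25.8 CPM in the cKO library and 69.2 CPM against 39.5 CPM in the fl/fl library, and so did Lgals1, 235 CPM against 136 CPM and 265 CPM against 175 CPM. S100a4 in G2/M-positive cells lay 0.13 above its level in cells positive for neither set on the log2 scale in the cKO library and 0.01 above it in the fl/fl library. In cells positive for neither set, the genes lower in cKO past the limit were S100a4, S100a10, Lgals1 and S100a11, 4 of 9 measured, with 6.05% of all measured genes. S100a11 counted as measured only through its fl/fl level (6.78 CPM in cKO and 15.03 CPM in fl/fl cells), and Anxa2 and S100a6 were within the limit there, so nothing is read from that count. With all UMIs of such cells, 5 of 8 measured genes were lower past the limit, with 3.11% of all measured genes. Anxa2 (-0.36) and S100a6 (-0.45) were then among them. S100a10 was lower in cKO in each class, with log2 ratios of -0.71 in G2/M-positive, -0.97 in S-positive and -0.59 in cells positive for neither. Anxa2 had ratios of -0.28, -0.45 and -0.26 in the same order of classes.

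Over the 18 sums of the 9 clusters in both libraries, Anxa2 was most like Lgals1 among the set (Pearson r = 0.963 of log2 CPM) and next S100a10 (0.862) and S100a4 (0.694), while Anxa4 showed no such relation (-0.08). Of 2813 other genes averaging 50 CPM or more, those most like Anxa2 were Cox6a1, a subunit of cytochrome c oxidase (r = 0.956), Eif4ebp1, a repressor of cap-dependent translation (0.953), Npm3, a nucleolar chaperone (0.951), Ybx1, a nucleic acid binding protein (0.951), and Emg1, a ribosomal RNA methyltransferase (0.9498). These sums share libraries and differ in depth and in cell cycle, and the values are a description.

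The libraries also differed in a pair of near-identical mitochondrial sequences, and several of the 10 genes moved with it. The annotated sequence of Gm28438, a nuclear copy, differs from mt-Nd3 by 1 base over 345 aligned bases. Of the cKO microglia-like cells 1695 held UMIs of Gm28438 and none of mt-Nd3, and 4 the reverse. Of the fl/fl cells 490 held Gm28438 alone and 1186 held mt-Nd3 alone. The grouping was chosen once these counts were known, and what sets them apart was not tested.

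Within the fl/fl library, cells with Gm28438 alone had more S100a4, S100a6, Lgals1 and Anxa2 than cells with mt-Nd3 alone. S100a4 had 121.5 CPM (113 to 131) against 53.8 CPM (50.3 to 57.6), S100a6 50.3 CPM (44.7 to 56.3) against 12.7 CPM (11.03 to 14.6), and Lgals1 357 CPM (342 to 372) against 198 CPM (191 to 205). Of the 9 genes measured, 4 were higher past the limit and 0 lower, with 12.8% and 6.16% of all measured genes. S100a4 and Lgals1 were higher with Gm28438 alone in 9 of 9 clusters, S100a6 in 8 and Anxa2 in 5. Of the other genes, Anxa3 was higher in 7, Anxa4 and Anxa5 in 6, S100a10 and S100a11 in 5 and Anxa1 in 3. The share of all genes with such counts is not given here, so nothing is read from them.

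The genotype difference of those genes depended on which fl/fl cells were set beside the cKO cells. Against fl/fl cells with Gm28438 alone, cKO cells with Gm28438 alone were lower past the limit in 5 of 8 genes and higher in 0, with 10.4% and 6.23% of all genes. Compared with mt-Nd3-only cells of the fl/fl library they were lower in 1 of 8 and higher in 0, with 3.01% and 4.66% of all genes, and the median log2 ratio was 0.01. In cKO cells with Gm28438 alone, S100a4 was 55.5 CPM (52.6 to 58.5), S100a6 13.7 CPM (12.3 to 15.3) and Lgals1 195 CPM (190.1 to 201), each within the counting interval of mt-Nd3-only fl/fl cells. Anxa2 was 46.6 CPM (44.0 to 49.3) in these cKO cells, against 79.0 CPM (72.0 to 86.5) in fl/fl cells with Gm28438 alone and 52.2 CPM (48.7 to 55.8) in fl/fl cells with mt-Nd3 alone, the last with an overlapping interval.

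S100a10 was the 1 gene of the 8 lower past the limit against both. It had 30.9 CPM (28.8 to 33.1) in cKO cells with Gm28438 alone, against 60.9 CPM (54.8 to 67.5) in fl/fl cells with Gm28438 alone and 52.7 CPM (49.2 to 56.4) in fl/fl cells with mt-Nd3 alone. The log2 ratios were -0.96 and -0.75, and by cluster S100a10 was lower by any amount in 8 of 9 and in 9 of 9. For these cluster counts too the share of all genes is not given, and nothing is read from them. The monocyte markers summed to 144 CPM in these cKO cells, 105.6 CPM in fl/fl cells with Gm28438 alone and 66.3 CPM in fl/fl cells with mt-Nd3 alone, and the osteoclast-type markers to 4.08, 5.57 and 4.18 CPM.

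**Figure D4:**
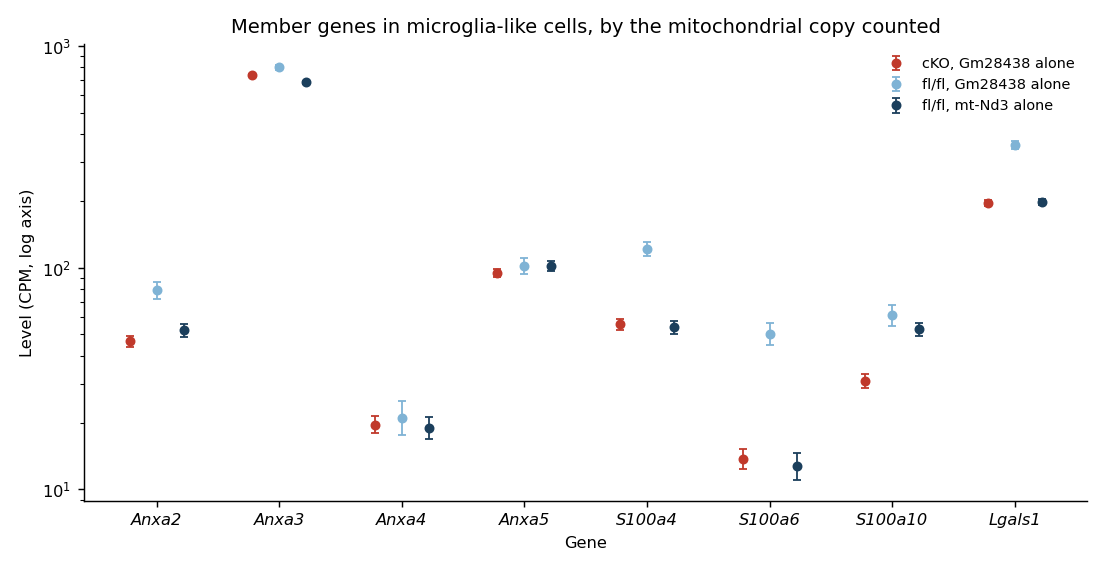
Level of the 8 measured genes in microglia-like cells with Gm28438 alone from the Hk2 cKO library (red), with Gm28438 alone from the Hk2 fl/fl library (light blue) and with mt-Nd3 alone from the Hk2 fl/fl library (dark blue), in CPM on a log axis, with 95% exact Poisson intervals as bars. S100a4, S100a6 and Lgals1 of the cKO cells lie beside the dark blue points, and S100a10 of the cKO cells lies below both.

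Of other genes of the same families and pathways, from lists drawn up from textbook knowledge, 28 were measured in microglia-like cells, of which 1 was lower past the limit and 6 were higher, beside the 2.47% and 3.33% of all measured genes given above. Of the 7 other annexins 3 were measured and 0 differed, with Anxa11 at 17.8 CPM in cKO and 15.3 CPM in fl/fl cells and Anxa7 at 50.1 CPM and 55.3 CPM. Of 12 other S100 genes 4 were measured, 2 higher and 0 lower, and S100pbp, which encodes a binding protein of S100P and was listed with them, had 10.9 CPM in cKO and 11.01 CPM in fl/fl cells. These 2 were the neutrophil genes S100a8, at 23.3 CPM in cKO and 13.6 CPM in fl/fl cells, and S100a9, at 26.5 CPM and 17.4 CPM, and neutrophil-like cells hold both at far higher levels. Among 4 measured galectins and ligands 2 were higher and 0 lower: Lgals3bp, a secreted glycoprotein that galectins bind, at 379 CPM in cKO and 165 CPM in fl/fl cells, and Lgals9, at 257 CPM and 199.5 CPM. Of 6 measured receptors and extracellular partners 2 were higher and 0 lower, namely Plau, the urokinase plasminogen activator, at 90.7 CPM in cKO and 47.5 CPM in fl/fl cells, and its receptor Plaur, at 79.2 CPM and 56.3 CPM. Of 10 measured intracellular partners 1 was lower and 0 higher. That was Vim, an intermediate filament gene, at 389 CPM (382 to 396) in cKO and 534 CPM (526 to 542) in fl/fl cells, and Rab11fip2 was next with 18.2 CPM in cKO and 19.8 CPM in fl/fl cells.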

How the data were processed

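Single-cell UMI counts of 1 library per genotype were used as the authors deposited them, as whole-number counts per gene and barcode, made with Cell Ranger 3.1.0 after bcl2fastq on GRCm38, per the submitters' processing notes. Which gene annotation was used is not stated there, and all 55450 identifiers and symbols match GENCODE M21. Cells needed 500 or more genes and no more than 10% mitochondrial UMIs. Cells were clustered with scanpy 1.11.5 (2000 variable genes without the 10 genes, 30 components, 15 neighbours, resolution 0.8) and named by markers, so class names are rebuilt. Scrublet called only 2 cKO and 2 fl/fl cells. Whether it missed doublets was not tested, so doublets are taken to remain. Counts were summed per library and class and given as CPM with 95% exact Poisson intervals, and shares have exact binomial intervals. Ratios add 1 CPM, a gene is measured at a mean of 10 CPM, and 0.32 on the log2 scale (5 to 4) was the limit used. Other genes were named as the 2 with the largest ratio per list and the 5 most like Anxa2. Code was tested on simulated data. The genes, lists and comparisons were chosen with earlier results of these data known. Coding-sequence identity was used where protein identity had been planned, and Lgals6 was not analysed here. Alternatives were run, including edgeR 4.0.16 scaling.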

Additional observations from a re-analysis of the deposited data

Results flagged for a closer look

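For 4 of the genes the cKO over fl/fl log2 ratio was past the limit in opposite directions in microglia-like cells and in another class. Counting intervals were apart in both, and the difference was not tested, since each genotype is 1 library. Anxa3 is not among the 4, as it was within the limit in microglia-like cells (0.05, intervals apart). Its ratio was -1.78 in monocyte-like cells, -1.12 in the osteoclast-type cluster and -0.41 in the MHC class II cluster, with intervals apart in each. Anxa2 had 0.45 in monocyte-like cells and -0.42 in microglia-like cells. S100a4 had 0.56 in monocyte-like cells, 0.54 in the MHC class II cluster and 0.54 in the osteoclast-type cluster, and -0.41 in microglia-like cells. S100a6 had 0.36 in neutrophil-like cells, 0.36 in monocyte-like cells, 0.35 in the MHC class II cluster and 0.40 in the osteoclast-type cluster, and -0.50 in microglia-like cells. S100a10 had 0.44 in the MHC class II cluster and -0.83 in microglia-like cells. The cKO clusters with higher values of these genes held 65.8 CPM (monocyte-like), 915 CPM (MHC class II) and 558 CPM (osteoclast-type) of the 4 microglial markers, less than the 1106, 1306 and 989 CPM of the same fl/fl clusters. Neutrophil-like cells held 1201 CPM in cKO and 1242 CPM in fl/fl, nearly equal. The part of these markers' RNA in the ratios was not tested.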

How the results depend on the processing

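S100a10 was lower in cKO microglia-like cells past the limit under all 19 alternatives, 16 planned and 3 chosen after seeing the data, with log2 ratios of -0.96 to -0.69. Anxa2 was lower in all 19, from -0.75 to -0.16, and past the limit in 17. Lgals1, at the limit, was past it in 10. The count of 5 genes lower past the limit was 5 or 4 under most alternatives. It was 4 with edgeR scaling, thinning to 5000 UMIs, 5 CPM added, a stricter cell filter or all barcodes. Leaving out the 1% of cells highest in 4 of the genes also gave 4. Where it was 4, 1.40 to 4.73% of all measured genes were lower past the limit. The count was 2 with a mean over cells of CPM (3.53% of all measured genes). In cells with no UMI of 6 markers of other cells (978 cKO and 1320 fl/fl cells) it was 3 (3.45%). With cKO cells holding Gm28438 alone set against fl/fl cells holding mt-Nd3 alone it was 1 (3.01%). The median log2 ratio was -0.25 with the mean over cells and -0.25 in cells with no UMI of the 6 markers. It was -0.81 in cells with Gm28438 alone in both libraries. Under the comparison with mt-Nd3 alone it was 0.013, and S100a4 (0.044) and S100a6 (0.10) also changed sign there. The cause was not tested. In cells in neither cycle set, the 4 genes lower at 5000 UMIs were 2 at 2500 UMIs, where fewer UMIs per cell were used, and 5 of 8 with all UMIs of the cells. No paired analysis was possible because each genotype has 1 library, and for the same reason no replicate could be left out. Anxa1 and S100a11 did not reach 10 CPM, and with 13 and 26 UMIs of Anxa1 the libraries could not be told apart at this depth.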
